A study of Mus musculus with 4 samples.

Results

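T cells of the mouse HGG-MYCN tumors were defined as single cells that carried RNA of the Cd3 chains of the T cell receptor complex. A kept cell was counted when at least 2 of Cd3d, Cd3e and Cd3g had a unique molecular identifier (UMI, the tag that marks 1 captured RNA molecule). At most 1 of the B cell genes Cd79a, Cd79b and Ms4a1, at most 1 of the complement genes C1qa, C1qb and C1qc, and fewer than 5 UMIs of the transgene reporters FLUC and humanNMYC were allowed. This rule found 226 T cells among 10975 kept cells. Because the cells were chosen by measured values, the Cd3, B cell, C1q and reporter levels below describe the choice and were not tested.

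The tumors came from mice of the genotype hGFAP-cre::TP53Fl/Fl::lsl-MYCN, in which Cre recombinase under the human GFAP promoter deletes p53 and switches on human MYCN in neural precursor cells. Mice 4 and 5 were 43 days old (P43) and mice 6 and 7 were 70 days old (P70), all 4 carried the same alleles, and no tumor-free brain was part of the data used here. Each mouse gave 1 library of thawed, viability-sorted cells, so that age and library cannot be told apart, and no sequencing batch is named. The libraries held 3430, 1739, 2972 and 3693 cell barcodes and 15044263, 13106786, 18698291 and 40621958 UMIs for mice 4, 5, 6 and 7, in this order, which is used throughout.

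T cells recognize antigen through the T cell receptor, whose signal is passed into the cell by the Cd3 chains and kinases such as Lck and Zap70. Helper T cells carry Cd4, cytotoxic T cells carry Cd8, regulatory T cells express the transcription factor Foxp3, and type 17 cells make the cytokine Il17a. In the brain they are sparse, and they enter tumors together with other leukocytes. Many gamma delta T cells, which use another pair of receptor chains, belong to the type 17 kind.

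Before any result, the P43 labels of sex were compared with RNA from Ddx3y, Eif2s3y, Uty and Kdm5d, genes of the Y chromosome. The T cells held 28, 0, 48 and 0 UMIs of them. Mouse 4, labelled female, thus carried Y chromosome RNA, and mouse 5, labelled male, showed none. Both are P43 mice, and the groups by age are the same whichever of the libraries is which. In all, 15 barcodes occurred in more than 1 library, and none of them was that of a T cell.

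T cells made up 1.21% of kept cells in mouse 4 (40 of 3319, exact 95% binomial interval 0.862 to 1.64%). The share was 8.45% in mouse 5 (123 of 1456, interval 7.07 to 10.0%), 1.79% in mouse 6 (49 of 2731, interval 1.33 to 2.37%) and 0.404% in mouse 7 (14 of 3469, interval 0.221 to 0.676%). Mouse 5 stood apart from the other mice, whereas mouse 4 and mouse 6 had overlapping intervals, so that the ages overlapped at full depth. The mean share was 4.83% at P43 and 1.10% at P70, a difference of -3.73 percentage points. When all kept cells were thinned to 1000 UMIs before the rule was applied, the shares were 1.11, 5.63, 1.05 and 0.178%. A two-sided exact permutation test over the 4 mice gave p = 0.667 for the unthinned shares. After thinning both P70 mice lay below both P43 mice (exact permutation p = 0.333), which is the smallest p that 2 mice per age allow. The intervals of mouse 4 (0.705 to 1.66%) and mouse 6 (0.679 to 1.54%) still overlapped there. Thinning left out 1246 of the 3319 kept cells of mouse 4.

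The other cells of a library set part of these shares, since 335, 233, 370 and 2488 kept cells carried 5 or more reporter UMIs. Among leukocytes, called from at least 3 of 6 common leukocyte genes, T cells accounted for 18.9% (38 of 201), 40.9% (121 of 296), 3.02% (47 of 1555) and 5.88% (12 of 204). Here both P43 mice lay above both P70 mice, by 25.4 percentage points on average (exact permutation p = 0.333, the smallest possible). C1q myeloid cells, gated in the same way on the C1q genes, numbered 49, 45, 539 and 104. Within mouse 6 they were thus far more frequent than T cells, whereas mouse 5 held fewer of them than T cells.

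**Figure D1:**
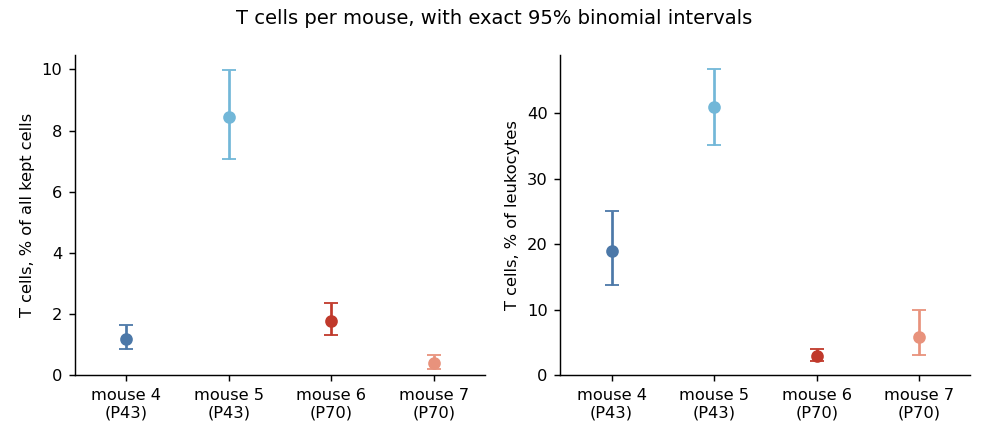
T cells as a percentage of all kept cells (left) and of leukocytes (right) in each of the 4 mice, with exact 95% binomial intervals that cover counting error only. Mouse 5 lies above all other mice in both panels, and both P70 mice lie below both P43 mice in the right panel but not in the left, which shows unthinned shares.

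The Cd3 genes, which lie next to each other on chromosome 9, were nearly confined to the gated cells. Cd3g, encoding the gamma chain, had 1049, 2001, 776 and 1134 CPM (UMIs scaled to a total of 1000000) in T cells and at most 2.03 CPM in the remaining kept cells of any mouse. As a check on genes that the rule did not use, 11 genes of T cell receptor signalling, among them Lck, Zap70 and Lat, summed to 2303, 2383, 2278 and 2230 CPM. In the remaining cells of each mouse the sum was 231, 207, 275 and 169 CPM. The level was thus near the same in all 4 mice when all gated cells were used. With the strict gate described below the sums were 2644, 2419, 2384 and 3201 CPM, so that mouse 7 was the highest. The label as T cells holds for the group against the remaining cells as a whole, in which natural killer cells were not set apart.

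Cells just inside and just outside the rule differed in these signalling genes. Cells with exactly 2 Cd3 genes (18, 28, 17 and 10 cells) had on average 3.56, 4.14, 4.59 and 2.8 of the 11 genes. Cells with 1 Cd3 gene, which were not counted (28, 10, 22 and 3 cells), had 1.14, 3, 1.55 and 1.33 of them. Those outside were also shallower, with median depths of 813.5, 1294, 1560.5 and 746 UMIs against 2037.5, 2930, 2587 and 1317 UMIs. The reporter limit cost 1, 0, 1 and 1 cells, and the B cell and C1q limits cost none.

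The median T cell had 2339, 3224, 3545 and 1317 UMIs and 1131, 1509, 1506 and 726.5 detected genes. Mouse 7 thus contributed few and shallow cells, with 25562 UMIs in total against 121999, 405348 and 253725 in the others. A single cell of mouse 7 held 35.5% of its T cell UMIs. In such sums, fewer cells of a kind and less RNA per cell cannot be told apart.

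Of the gene lists for other cell types, that of 10 natural killer (NK) genes, several of which T cells can use too, was carried by the largest share of T cells in mice 4, 6 and 7. It gave 206, 181, 174 and 29 UMIs, and 42.5, 8.13, 28.6 and 42.9% of T cells carried at least 2 of its genes. B lineage genes gave 1, 11, 5 and 5 UMIs, with Cd79a and Ms4a1 at 0 throughout. Genes of neutrophils gave 0, 3, 4 and 0 UMIs, those of dendritic cells 3, 1, 4 and 0, and those of neuroblasts 1, 0, 5 and 0. Tumor and oligodendrocytic genes gave 50, 103, 27 and 9 UMIs, mostly of Mbp in mice 4, 5 and 6. At least 2 of them were carried by 10.6% of T cells in mouse 5, more than the NK genes there. The defining oligodendrocytic factor Olig2 was at 0 in all T cells.

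Vessel and myeloid genes were carried by 4 cells in particular. In mouse 4, the 7 endothelial genes gave 160 UMIs (29, 29 and 4 in the other mice), and 35 of the 56 UMIs of Cldn5, a tight junction gene of brain endothelium, lay in 1 cell. Another mouse 4 cell held 40 of the 41 UMIs of Rgs5, a pericyte gene. In mouse 7, 1 cell held all 98 Rgs5 UMIs. In mouse 6, 1 cell held 148 of the 157 UMIs of Lyz2, the lysozyme gene of myeloid cells, together with 7 UMIs of Cd3d, 3 of Cd3g and 8 of Foxp3. No doublet caller was used. Results that rest on these cells are therefore given with and without them, and also for a strict gate that allowed at most 1 gene of the vessel, neutrophil, dendritic, tumor and neuroblast lists, which kept 33, 107, 44 and 11 T cells. The strict gate took out the Cldn5 cell and both Rgs5 cells. It did not use the list of C1q myeloid genes, which holds Lyz2, and kept the Lyz2 cell.

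Type 17 genes set the T cells of mouse 5 apart. A cell was called type 17-like when it carried at least 2 of 10 measured genes, which were Il17a, Il17f, Il23r, Il1r1, Ccr6 and Il22 of the type 17 list and Sox13, Cd163l1, Blk and Maf of the gamma delta list. By this count 7 of 40 T cells (17.5%) were type 17-like in mouse 4. In mouse 5 it was 93 of 123 (75.6%, interval 67.0 to 82.9%), in mouse 6 it was 3 of 49 (6.12%), and in mouse 7 it was 0 of 14. Type 17-like cells were thus the majority in a single animal, and mouse 5 exceeded mouse 4 of the same age by more than counting error.

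Mouse 5 also had the highest share at equal depth. After each T cell was thinned to 1000 UMIs, 11.1% (4 of 36), 58.2% (71 of 122), 4.08% (2 of 49) and 0% (0 of 10) were type 17-like. C1q myeloid cells also carried Maf of this set, at 487, 283, 143 and 166 CPM. They gave 2.86, 0, 0 and 0% after the same thinning, at median depths of 1635, 8584, 5625 and 2539.5 UMIs. NK cells gave 0% in every mouse. The T cell share of mouse 5 lay above those of both classes by more than counting error. The T cell shares of mice 4 and 6 rested on 4 and 2 cells, the former with an interval of 3.11 to 26.1%. At 500 UMIs per cell, the T cell shares were 2.5% (1 of 40), 28.5% (35 of 123), 4.08% (2 of 49) and 0% (0 of 14). There mouse 4 lay below mouse 6, on 1 and 2 cells.

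Il17a (chr1:20730905-20734496, plus strand, GRCm38) had the most UMIs of the type 17 list. It gave 20, 491, 1 and 0 UMIs, which were spread over 5, 65, 1 and 0 cells. This came to 164 CPM (interval 100 to 253) in mouse 4 and 1211 CPM (interval 1107 to 1323) in mouse 5, against 3.94 CPM in mouse 6. For mouse 7 the 0 count allows up to 117 CPM (3 counts) over all its T cells, which is just under the level of mouse 4. The Rgs5 cell described above held 35.5% of the T cell UMIs of mouse 7. Without that cell, 3 counts stand for more than the 164 CPM of mouse 4. Mouse 7 could therefore not be placed below mouse 4 for Il17a. Il17f, its neighbour on chromosome 1, gave 2, 20, 0 and 0 UMIs.

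Cd163l1, a scavenger receptor gene known from gamma delta T cells, gave 9, 325, 10 and 0 UMIs. Blk, a kinase gene needed by type 17 gamma delta cells, gave 4, 117, 1 and 0, and the transcription factor gene Sox13 gave 3, 46, 0 and 0. Il23r, the receptor gene for the cytokine that sustains type 17 cells, gave 2, 19, 0 and 0 UMIs. Mouse 5 was the highest for each of these genes among mice 4, 5 and 6. Mouse 7, whose 0 count allows up to 117 CPM, could be placed below mouse 5 only for Cd163l1 (802 CPM) and Blk (289 CPM), not for Sox13 (113 CPM) or Il23r (46.9 CPM). This did not hold over all T cells for Il1r1, an interleukin 1 receptor gene of the defining set, which had 2, 47, 2 and 3 UMIs. It had 16.4, 116, 7.88 and 117 CPM, so that mouse 7 was at the level of mouse 5 on 3 UMIs. With the strict gate, however, mouse 7 had 0 CPM of the type 17 list. Without the 4 cells described above, Il1r1 was lower in both P70 mice than in both P43 mice. Maf, which other T cells use too, was more even, with 213, 671, 359 and 235 CPM. The constant genes of the gamma and delta receptor chains were not analysed here, so the receptor of these cells was not determined.

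Within mouse 5, the 93 type 17-like cells and the 30 other T cells were then compared in genes that had not defined them, as a description of 1 animal with no test. Over all 10614 such genes with a UMI, the genes of the cell rule left out, 2.57% were higher and 2.02% lower in the type 17-like cells, meaning that the 95% counting intervals did not overlap. Over the 3446 genes with at least 20 UMIs it was 7.63% and 4.67%. Of 8 tissue residency genes, Cxcr6 and Cd69 were higher in the type 17-like cells and Itga1 and Itgb1 lower, while the intervals of the other 4 overlapped. Cxcr6, a chemokine receptor gene of tissue-resident T cells, had 870 against 225 CPM (3.86-fold), and Ccr2, a receptor gene for entry into inflamed tissue, had 663 against 108 CPM (6.13-fold). S100a4, a calcium-binding protein gene, had 1957 against 279 CPM (7.01-fold). The ion channel gene Tmem176a had 900 against 81.1 CPM (11.1-fold).

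Cytokine and receptor genes followed. Il18r1, a chain of the interleukin 18 receptor, had 530 against 144 CPM, and Il7r, the receptor gene for the survival cytokine interleukin 7, had 826 against 405 CPM. Tnf, an inflammatory cytokine, had 265 against 54.0 CPM. Actn2, encoding an actin crosslinker, had 130 of its 132 UMIs in the type 17-like cells.

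Cytotoxic genes lay on the other side, with 6 of 9 listed genes lower in the type 17-like cells, none higher and overlapping intervals for Gzmb, Gzmk and Klrg1. Nkg7, a gene of cytotoxic granules, had 0 UMIs in the 93 type 17-like cells and 80 UMIs (721 CPM) in the other 30, which is at least 70.7-fold lower when 3 counts are put in place of 0. Xcl1, a chemokine of cytotoxic cells, was at least 45.1-fold lower and the co-receptor gene Cd8b1 at least 35.3-fold lower. Ccl5 had 64.6 against 1847 CPM. Type 1 genes were divided, since Tnf and Il18r1 were higher in the type 17-like cells and Ifng, Cxcr3 and Tbx21 lower, of 8 listed. Ifng, the type 1 cytokine gene, had 16.99 against 450 CPM. Cd4 was found in 2 of the 93 cells and in 7 of the 30.

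Of 11 T cell receptor signalling genes, Lck, Skap1, Prkcq and Sh2d1a were lower in the type 17-like cells and Ptprcap and Bcl11b higher, and the list summed to 2337 against 2504 CPM. Lck had 54.4 against 387 CPM and Cd5, an inhibitor of T cell receptor signals, had 20.4 against 180 CPM. Klf2, a factor of recirculating cells, had 37.4 against 378 CPM. In mouse 4, none of the 7 type 17-like cells carried Nkg7, Ifng or Ccl5, whereas 22, 13 and 16 of the other 33 T cells did.

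**Figure D2:**
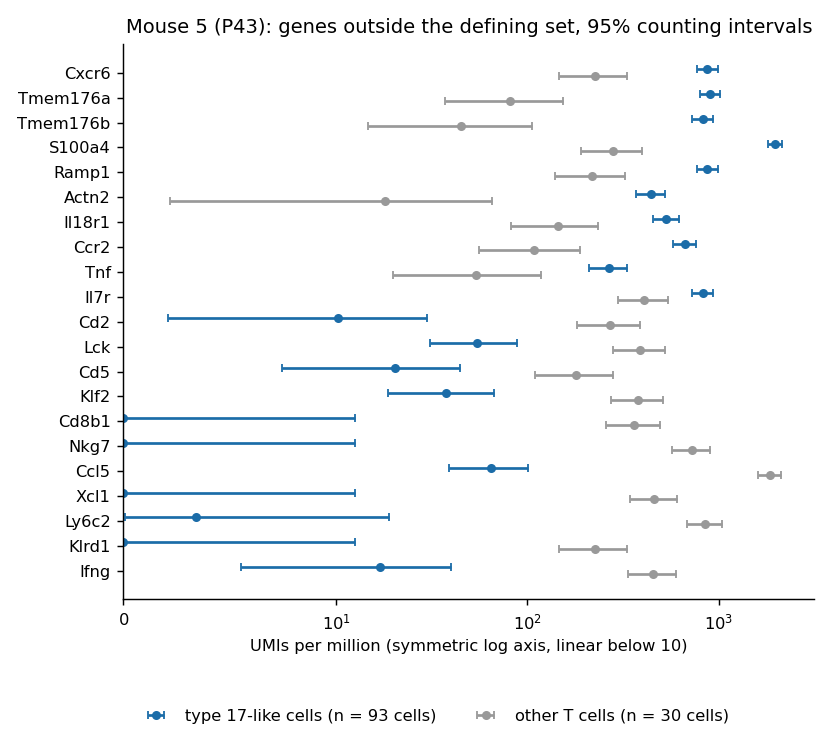
Levels (CPM, symmetric log axis) of genes outside the defining set in the 93 type 17-like cells and the 30 other T cells of mouse 5, with 95% counting intervals. Cxcr6, Tmem176a and S100a4 are higher in the type 17-like cells, whereas Nkg7, Xcl1, Cd8b1 and Klrd1 have no UMI there.

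Neither co-receptor was found in most T cells of the P43 mice. Cells with Cd4 and no Cd8a or Cd8b1 numbered 4, 9, 24 and 2, cells with Cd8 and no Cd4 numbered 2, 7, 8 and 5, and no cell had both. The remaining 34, 107, 17 and 7 cells (85, 87.0, 34.7 and 50%) had neither. Mouse 6 had the highest share of cells with a co-receptor at full depth, with Cd4 the more frequent. At 1000 UMIs per cell, 88.9, 93.4, 63.3 and 60% had neither, the last of only 10 cells. At that depth, the share of Cd8 cells was 25, 50, 33.3 and 100% of only 4, 8, 18 and 4 cells. The P70 mean exceeded the P43 mean by 29.2 percentage points (exact permutation p = 0.667), and this difference changed sign without mouse 7.

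Foxp3, the regulatory T cell factor, was found in 0, 2, 12 and 0 T cells with 0, 6, 28 and 0 UMIs. In mouse 6 this was 24.5% of T cells (interval 13.3 to 38.9%). At 1000 UMIs per cell the share was 0, 0.820, 6.12 and 0%, and the difference between the ages was 2.65 percentage points (exact permutation p = 1). No C1q myeloid cell had Foxp3 at that depth. For mouse 7, 0 of 14 cells allows up to 21.4% of cells with a Foxp3 UMI (3 cells), and its 0 count allows up to 117 CPM, which is above the 110 CPM of mouse 6. Whether the T cells of mouse 7 differed from those of mouse 6 in Foxp3 was therefore not detectable at this depth.

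Of the 12 Foxp3 cells of mouse 6, 9 had Cd4 and no Cd8, none had Cd8, and 4 were cycling, among them the Lyz2 cell. Leaving out the deepest cell of the mouse, they were set beside 36 T cells without Foxp3, again as a description of 1 animal. All 7 other genes of the regulatory list with a UMI (Il2ra, Ctla4, Ikzf2, Il10, Tnfrsf9, Capg and Izumo1r) were higher in the Foxp3 cells, with intervals that did not overlap. Over all 9828 genes with a UMI 2.14% were higher and 1.31% lower, and over the 1955 with at least 20 UMIs 7.26% and 5.68%. Of 6 helper genes, 3 were higher (Icos, Tnfrsf4 and Tnfrsf18) and Il7r was lower. Tnfrsf4, a costimulatory receptor gene, had 1761 against 279 CPM (6.31-fold). Ctla4, an inhibitory receptor gene, had 1188 against 332 CPM (3.58-fold), and Ikzf2, the factor Helios, had 1337 against 656 CPM (2.04-fold). Il10, an immunosuppressive cytokine, had 11 UMIs in 2 of the Foxp3 cells and 0 in the others.

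Gzmb, a granzyme gene usually read as cytotoxic, was also in 7 of the 12 Foxp3 cells, with 1050 against 106 CPM, but 89 of the 113 Gzmb UMIs of mouse 6 lay in 1 cell. The chemokine Ccl5 went the other way, with 191 against 3137 CPM, and the NK receptor gene Klrd1 had 0 against 317 CPM. The Lyz2 cell described above is 1 of the 12, and the levels and list counts given for the Foxp3 cells include it. Without it, mouse 6 kept 20 of 28 Foxp3 UMIs, 194 of 210 Tnfrsf4 UMIs and 134 of 158 Ctla4 UMIs. Across mice, Tnfrsf4 had 1, 13, 210 and 0 UMIs and Ctla4 had 3, 31, 158 and 2.

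Cytotoxic cells, with at least 3 of 9 effector genes, numbered 15, 14, 17 and 6. This was 37.5, 11.4, 34.7 and 42.9% of T cells, and 16.7, 1.64, 16.3 and 20% after thinning. Mouse 5 was the lowest in both counts. A limit on NK genes stricter than the 2 genes used above was passed by 13, 7, 9 and 2 T cells. Of these, 11, 5, 5 and 2 were cytotoxic cells, which in mouse 4 was most of the 15. No gate used the NK list, so NK-like cells were not set apart from cytotoxic T cells. Nkg7 had 672, 197, 658 and 978 CPM and Ccl5 had 2771, 553, 1714 and 3325 CPM, again with mouse 5 lowest. Gzma, another granzyme gene, had 0, 20, 17 and 8 UMIs, and all 8 of mouse 7 came from 1 cell. C1q myeloid cells gave no more than 0.195% cytotoxic cells after thinning.

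Cycling T cells, with at least 2 of 8 cell cycle genes, were 27.5, 0.813, 14.3 and 14.3% of T cells (11, 1, 7 and 2 cells). After thinning the shares were 13.9, 0, 6.12 and 10%. The ages differed by 1.12 percentage points (exact permutation p = 1), and the sign of this difference depended on the depth. Mki67, a proliferation gene, had 53, 6, 76 and 1 UMIs, of which 24 of the 76 in mouse 6 were in the Lyz2 cell. With 1 gene as the limit, the unthinned shares were 37.5% in mouse 4 and 16.3% in mouse 5 (20 of 123 cells), so that the low share of mouse 5 depends in size on this limit.

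**Figure D3:**
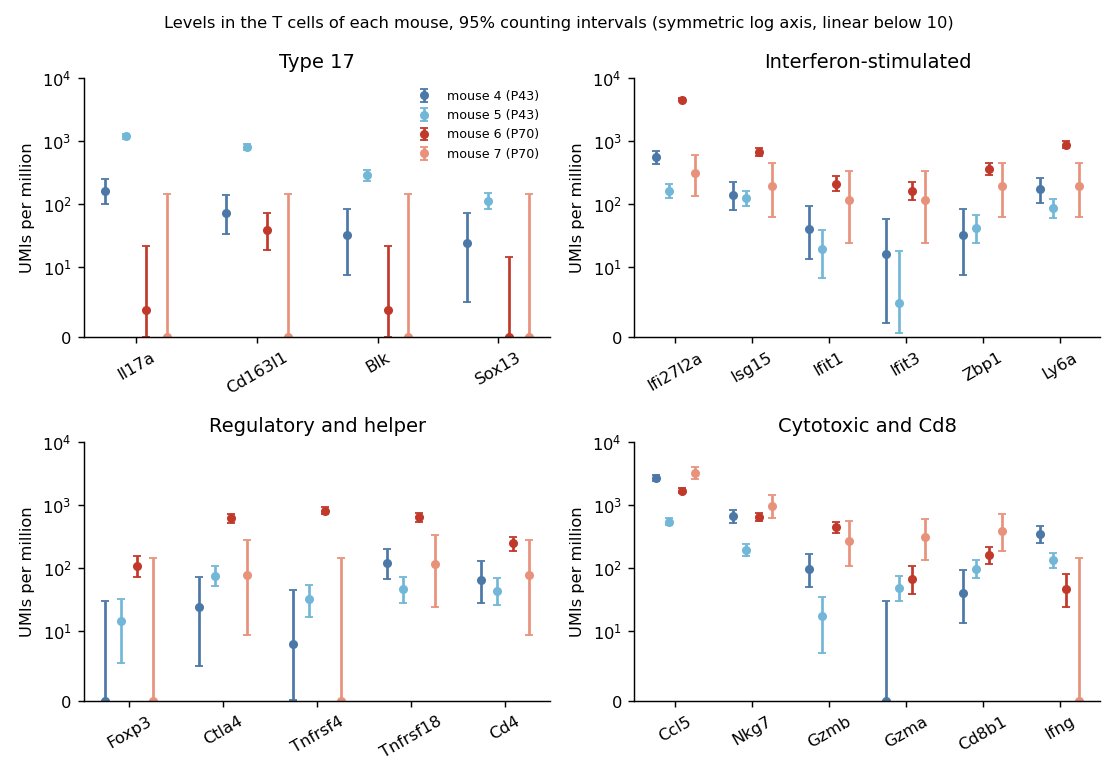
Levels of selected genes (CPM, symmetric log axis) in the T cells of each mouse, with 95% counting intervals. Il17a and Cd163l1 are highest in mouse 5 and Tnfrsf4 in mouse 6, the interval of Foxp3 in mouse 7 reaches above the level of mouse 6, and Ccl5 and Nkg7 are lowest in mouse 5.

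Interferon-stimulated genes were high in the T cells of mouse 6. Interferons are cytokines that switch on a common set of antiviral genes in nearly any cell, among them the ubiquitin-like modifier gene Isg15 and the RNA-binding Ifit genes. The 10 listed genes summed to 1541, 1007, 8277 and 1839 CPM. Cells with at least 3 of the 10 genes made up 32.5, 17.1, 81.6 and 35.7% of T cells, and 13.9, 4.10, 65.3 and 20% after thinning. Mouse 7 was above both P43 mice by sum, but with 47 UMIs in all. Without the 4 cells the sums were 1614, 1007, 7701 and 2608 CPM, and with the strict gate they were 1580, 832, 9260 and 3201 CPM.

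Ifi27l2a, a gene induced by interferon, had 69, 67, 1172 and 8 UMIs and contributed most of the sum in mouse 6. Its level was 566, 165, 4619 and 313 CPM, so that mouse 7 lay between the P43 mice. Isg15 (chr4:156199424-156200818, minus strand, GRCm38) had 139, 126, 686 and 196 CPM. Zbp1, a sensor of left-handed nucleic acids, had 32.8, 41.9, 367 and 196 CPM, and Ifit3 had 16.4, 4.93, 166 and 117 CPM. For Isg15, Zbp1 and Ifit3, mouse 7 exceeded the P43 mice on the strength of only 5, 5 and 3 UMIs.

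The high level in mouse 6 was not carried by the Lyz2 cell. Without it, mouse 6 still had 4267 CPM of Ifi27l2a, 640 CPM of Isg15 and 311 CPM of Zbp1. Ifitm3, an interferon-induced membrane gene, behaved differently. It had 9, 14, 152 and 19 UMIs, and 127 of the 152 in mouse 6 and all 19 in mouse 7 came from the Lyz2 cell and the Rgs5 cell.

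Other cells of the same tumors were compared with the T cells. C1q myeloid cells had 4817, 2852, 6691 and 2939 CPM over the 10 genes and thus also peaked in mouse 6. Their share of cells with at least 3 genes after thinning was 28.6, 19.0, 61.9 and 24.0%. NK cells had 1217, 452 and 1469 CPM in mice 4, 5 and 6 (10, 8 and 36 cells) and B lineage cells had 1422, 1535 and 1868 CPM (10, 6 and 10 cells). These levels rest on 16 to 128 UMIs and lay far below that of the T cells of mouse 6, and 11.8% of the NK cells of mouse 6 had at least 3 genes. Endothelial cells had 2822, 4471, 2695 and 2823 CPM with their maximum in mouse 5. RNA shed into the cell suspension was not modelled, and its part in the result was not tested.

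**Figure D4:**
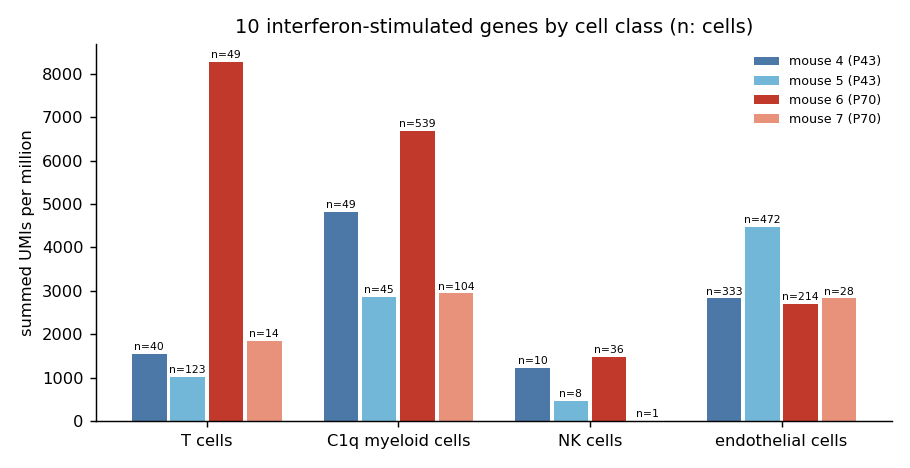
Summed level of 10 interferon-stimulated genes (CPM, linear axis) in 4 cell classes of each mouse, with the number of cells above each bar. T cells reach 8277 in mouse 6 and lie below 2000 in the other mice (mouse 7 at 1839, or 3201 with the strict gate), whereas endothelial cells are highest in mouse 5.

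The start regions of 3 of these genes are shown because the genes were high together in mouse 6. Capitals mark GAAA, any 2 bases and GAAA again, or the reverse complement of this run, which is the core of the element bound by interferon regulatory factors, in RefSeq sequence (GRCm38.p6) written 5′ to 3′ on the strand of the gene.

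Ifit3: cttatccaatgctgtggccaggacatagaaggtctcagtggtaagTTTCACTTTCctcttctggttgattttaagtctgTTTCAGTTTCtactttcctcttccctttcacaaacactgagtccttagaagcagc
Ifit1: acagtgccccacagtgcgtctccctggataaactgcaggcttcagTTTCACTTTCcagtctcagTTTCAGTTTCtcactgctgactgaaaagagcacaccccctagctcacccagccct
Isg15: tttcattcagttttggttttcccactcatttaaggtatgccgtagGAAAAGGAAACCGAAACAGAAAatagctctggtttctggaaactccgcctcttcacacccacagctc

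These are chr19:34583328-34583461 for Ifit3 (plus strand, 2 matches, the nearer 112 bases before the start), chr19:34640740-34640858 for Ifit1 (plus strand, 2 matches, the nearer 75 bases before) and chr4:156200830-156200941 for Isg15 (minus strand, 3 overlapping matches, the nearest 56 bases before). Of the 6 listed genes with an entry, Bst2, Gbp2, Ifit1, Ifit3 and Isg15 held the element within 250 bases before the start, searched on both strands, that is 5 of 6, against 2.98% of all 32851 promoter windows. None of the 6 type 17 genes with an entry held it. A match of letters describes the sequence and does not show binding.

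The test across genes then asked which genes differed between P70 and P43 over all T cells. UMIs were summed per mouse, and 3308 genes passed the filter on low counts. With edgeR's quasi-likelihood test and Benjamini-Hochberg adjustment, no gene was called at an adjusted p of 0.05 (0% of the genes tested), and the smallest adjusted p was 0.114. At an unadjusted p of 0.05, 242 genes passed (111 higher and 131 lower at P70), and DESeq2 called 14 genes (5 higher and 9 lower). DESeq2 gave no adjusted p for 1667 of the 3308 genes and could not call them. Among these were Ifit3, Ifit1, Ifit2, Slamf6, Igf1r and Tnf. By levels alone, 613 genes (18.5%) were higher in both P70 mice than in both P43 mice and 703 (21.3%) were lower.

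The choice of cells weighed on this test. With the strict gate, which kept the Lyz2 cell, edgeR called 36 of 2958 genes higher (1.22%) and 24 lower (0.811%) at P70. Without only the 4 cells, an alternative chosen after the data had been seen, it called 33 of 3173 genes higher (1.04%) and 27 lower (0.851%), and 49 genes were called in both. The self-test on simulated counts for this comparison recovered 47.5% of genes changed 4-fold. The simulation gave every gene the same spread between mice and held no cells of mixed RNA. Its recovery is therefore not that of these mice, where it can be lower. The calls below are those of the strict gate unless stated otherwise, and none of them passed with edgeR over all 226 T cells. There DESeq2 called Ifitm3, Zbp1, Plac8, Tpm4 and Marcks higher and Selenop, Actn2, Cxcr6, Id2, Il17a, Tmem176a, Tmem176b, Ramp1 and S100a4 lower.

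Interferon-stimulated genes were the list with most calls. Over all T cells, 7 of 9 tested were higher in both P70 mice and none was lower, with a median log2 change of 2.33, beside -0.04 for all genes tested. With the strict gate 6 of 9 were called higher, which were Ifit3, Ifit1, Zbp1, Ly6a, Isg15 and Ifi27l2a, and the same 6 were called without the 4 cells. Ifit3 had a log2 change of 4.18 (SE 0.68, edgeR adjusted p = 0.114) over all T cells and of 5.22 (adjusted p = 0.00130) with the strict gate. Zbp1 had 2.99 (SE 0.49, adjusted p = 0.114) and 3.35 (adjusted p = 0.00161). Ifit2 (log2 change 3.46, SE 0.56, adjusted p = 0.114) and Ifitm3 (3.71, SE 0.48, adjusted p = 0.114) were also among the 5 of smallest p by edgeR over all T cells, the latter resting on 2 cells as given above. Of the 42 Ifit2 UMIs of mouse 6, 23 lay in 1 cell, and Ifit2 was not called without the 4 cells (adjusted p = 0.0895). Outside the list, the antiviral genes Iigp1, Ifih1, Xaf1 and Slfn5 were called higher by both (these were picked after their values were seen).

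Regulatory and helper genes were next. Of 6 regulatory genes tested with the strict gate, Ctla4, Tnfrsf9 and Izumo1r were called higher and none lower, and Tnfrsf18 was called in the helper list. Tnfrsf9, a costimulatory receptor gene, had 3, 7, 83 and 1 UMIs, and its log2 change was 3.93 (edgeR adjusted p = 0.00172). The log2 change of Ctla4 was 2.89 (SE 0.78, adjusted p = 0.343) over all T cells and 3.05 (adjusted p = 0.00884) with the strict gate. These changes rest on mouse 6, since mouse 7 had 1 UMI of Tnfrsf9 and 2 of Ctla4.

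Single genes of other lists were also called higher. Gzmb was called as 1 of 6 cytotoxic genes, with 12, 7, 113 and 7 UMIs, of which 1 cell of mouse 6 held 89. Itga4, an integrin chain gene for entry into the brain, was called as 1 of 5 residency genes. Cd8b1 was called as 1 of 2 Cd8 genes (log2 change 2.51), but not without the 4 cells (1.67, edgeR adjusted p = 0.145). Slamf6, a receptor gene of lymphocytes, had 0, 5, 50 and 3 UMIs and a log2 change of 4.65 (edgeR adjusted p = 0.00138).

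Type 17 genes were among those called lower at P70. Il17a had a log2 change of -7.37 (SE 1.39, edgeR adjusted p = 0.180) over all T cells and of -7.22 (adjusted p = 0.00138) with the strict gate, and it was the sole type 17 gene tested there. Cd163l1 was called as 1 of 2 gamma delta genes. Actn2, with 19, 132, 0 and 0 UMIs, had -8.66 (SE 1.19, adjusted p = 0.114) and -8.53 (adjusted p = 0.00130). Tmem176a, Tmem176b, S100a4 and Ramp1, which were high in the type 17-like cells of mouse 5, were called lower as well.

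Cxcr6 had 45, 281, 18 and 2 UMIs, and its log2 change was -2.88 (SE 0.49, edgeR adjusted p = 0.114) over all T cells. With the strict gate it was -2.65 (adjusted p = 0.00884). Id2, a factor of effector lymphocytes, had 142, 377, 67 and 8 UMIs and a log2 change of -1.92 (SE 0.35, adjusted p = 0.152). Selenop, a selenium carrier gene, had 37, 209, 5 and 1 UMIs (-4.17, SE 0.59, adjusted p = 0.114), and Igf1r, a growth factor receptor gene, had 21, 70, 1 and 1 (-4.39, SE 0.73, adjusted p = 0.114). All 4 genes were lower in both P70 mice and were called with the strict gate.

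Type 1 and early response genes were lower in part. Tnf, with 13, 84, 4 and 1 UMIs, had a log2 change of -3.10 (SE 0.63, edgeR adjusted p = 0.195) over all T cells and was the sole type 1 gene of 5 called with the strict gate. Ifng had 43, 55, 12 and 0 UMIs, with a log2 change of -2.49 (SE 0.73, adjusted p = 0.351), and was not called. Of 10 immediate early genes, which encode factors made soon after a stimulus, Jun and Fosb were called lower. Their list summed to 7508, 11378, 2625 and 8450 CPM, so that mouse 6 was low and mouse 7 lay between the P43 mice. With the strict gate the sums were 8229, 11588, 2783 and 7241 CPM, so that mouse 7 lay below both P43 mice.

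The remaining lists had no call with the strict gate. Of the receptor complex list, from which the Cd3 genes of the cell rule were left out, 6 genes were tested, with a median log2 change of 1.28 over all T cells. The surface genes Cd2, Cd6 and Cd28 were higher in both P70 mice, whereas Cd5, Thy1 and the receptor chain gene Cd247 (-0.54) overlapped between the ages. T cell receptor signalling genes had a median of -0.02 (1 of 10 higher, 3 lower), genes of naive and recirculating cells 0.71 (3 of 6 higher, none lower), cycling genes 0.83 (0 of 6 either way) and NK genes -0.20 (1 of 6 lower). The cycling median changed sign with DESeq2 (-0.26) and without T cells above 10000 UMIs (-1.51). Inhibitory receptor genes had a median near 0 (0 of 3 either way). Pdcd1, the checkpoint receptor gene, had 1, 38, 33 and 0 UMIs and did not follow age.

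Whether the change with age differed between T cells and C1q myeloid cells was tested as an interaction over 5686 genes, with the mouse as a block, since both classes come from each mouse. edgeR called 90 genes (1.58%), of which 59 changed more in the direction of higher levels in T cells and 31 in the direction of lower levels. DESeq2 called none, with 158 genes at an unadjusted p of 0.05 against 449 by edgeR. Among 118 listed genes tested, 8 were called. The interferon-stimulated genes Ifit3 (log2 interaction 3.49, SE 0.85, edgeR adjusted p = 0.00643), Ifi27l2a (2.47, SE 0.59, adjusted p = 0.00496) and Zbp1 (2.25, SE 0.66, adjusted p = 0.0436) changed more towards higher levels in T cells. In C1q myeloid cells each of them was higher in mouse 6 but lower in mouse 7 than in both P43 mice. Ifi27l2a had 1857, 1336, 1917 and 954 CPM there, and Zbp1 had 185, 110, 278 and 83.0 CPM. In T cells, Ifi27l2a of mouse 7 (313 CPM) also lay below that of mouse 4 (566 CPM).

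Ifit3 had 116, 73.6, 184 and 24.2 CPM in C1q myeloid cells, so that P43 levels in T cells were lower and P70 levels in mouse 6 were alike. Without the 4 cells, Ifit3 (3.14, adjusted p = 0.0461) and Ifi27l2a (2.41, adjusted p = 0.0125) were still called, whereas Zbp1 (1.97, adjusted p = 0.129) was not. Rgs1, a regulator gene of migration, had 246, 646, 378 and 156 CPM in T cells but 130, 243, 985 and 1636 CPM in C1q myeloid cells (log2 interaction -3.31, SE 0.58, edgeR adjusted p = 1.24e-05). Klf2 had 138 and 430 CPM in P70 T cells and 56.3 and 86.4 CPM in P70 C1q myeloid cells (2.53, SE 0.58). Its T cell counts were 36, 53, 35 and 11 UMIs, with a mean of 213 CPM at P43. Mouse 6 had 0.467 of the level of the higher P43 mouse, so that the P70 T cells shared no rise. Called without the 4 cells were 43 of the 90 genes.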

How the data were processed

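Tumors of 4 mice were dissociated with papain and DNase, frozen, thawed, sorted for viability with 7-AAD and run with 10x 3′ chemistry, 1 library per mouse. The UMI counts per gene and barcode were those the authors deposited, made with Cell Ranger 6.0.2 against mm10 with FLUC and humanNMYC added (21861 features), with no normalization. Barcodes were kept that had 200 genes or more, no more than 40000 UMIs and less than 25% of UMIs from mitochondrial genes. Levels (CPM) are scaled to all UMIs of the T cells of a mouse. Intervals are exact (binomial or Poisson, 95%) and, like the limit of 3 counts for a 0, cover counting error only, so deeper libraries are more precise.

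Counts summed per mouse were tested with edgeR 4.0.16 (quasi-likelihood, TMM, filterByExpr, Benjamini-Hochberg, limit 0.05) in R 4.3.3, with DESeq2 1.42.0 as an alternative. Shares were compared by exact two-sided permutation. For 4 share comparisons the smallest adjusted p was 1. The scripts were tested on simulated data. The cell rule, the 27 gene lists (212 genes, of which 10, mostly receptor constant genes, were not analysed here, after listed genes that are not reported here had been left out of every list and sum) and the tests were chosen with earlier results of these data known. Genes were named from the lists and, for each test, by the 10 largest called rises and falls whose mice did not overlap, filled up to 5 by smallest p. A planned test of Cd4 against Cd8 T cells was not run, since no mouse had 10 cells of each. The mice are separate animals.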

Additional observations from a re-analysis of the deposited data

Results flagged for a closer look

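The change with age differed between T cells and C1q myeloid cells for 90 genes by edgeR's interaction test, whereas DESeq2 called none. The 10 called genes with the largest move towards higher levels in T cells had log2 interactions of 9.76 (Ccl6), 9.44 (F13a1), 9.16 (Ccl2), 8.82 (Gda), 8.71 (Cfp), 8.37 (Alox5ap), 8.31 (H2-Aa), 7.74 (Napsa), 7.35 (Nfam1) and 7.35 (Gm21188). Most are genes of myeloid cells, such as the chemokines Ccl2 and Ccl6 and the antigen presentation gene H2-Aa. All 10 had 0 UMIs in the T cells of both P43 mice, so that the fitted sizes are no bounds, and 9 of 10 had 0 in mouse 7 too. In mouse 6, the Lyz2 cell held 8 of 9 Ccl6 UMIs, 15 of 16 of F13a1, 9 of 9 of Ccl2, 11 of 11 of Gda and 12 of 12 of Alox5ap. It held 1 of 17 of H2-Aa, and without the 4 cells with RNA of other types H2-Aa was the sole gene of these 10 still called (log2 interaction 8.21, edgeR adjusted p = 0.00297). With the strict gate, which kept the Lyz2 cell, H2-Aa was not called (edgeR adjusted p = 0.213), nor were Nfam1 and Gm21188, while the other 7 were. Of the 17 H2-Aa UMIs, 10 lay in 1 cell. Lyz2 itself was called at 6.49, but not without the 4 cells (3.19, edgeR adjusted p = 0.330).

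The 10 called genes with the largest move towards lower levels in T cells were Cldn5 (-13.84), Tor1b (-8.22), Gcnt2 (-6.55), Sgk1 (-4.96), Igf1r (-4.71), Smox (-4.62), Bcl2a1a (-4.57), Cpd (-3.94), Selenop (-3.61) and Osbpl3 (-3.51). With the strict gate, Tor1b and Smox were not called (edgeR adjusted p = 0.163 for both), Smox was not called without the 4 cells either (0.0913), and Cldn5 did not pass the filter on low counts in these fits. Cldn5 had 56, 2, 0 and 0 UMIs in T cells and 0, 1, 205 and 0 in C1q myeloid cells, so that it rests on 3 T cells of mouse 4 and on the C1q myeloid cells of mouse 6. Sgk1, a kinase gene, had 12, 24, 3 and 0 UMIs in T cells and 15, 22, 1055 and 106 in C1q myeloid cells. Gcnt2, a glycosyltransferase gene, had 6, 33, 1 and 0 in T cells and 0, 9, 260 and 23 in C1q myeloid cells. Called genes of the lists were also Rgs1 (-3.31), Klf2 (2.53), Itgb1 (2.34), Ifi27l2a (2.47), Ifit3 (3.49) and Zbp1 (2.25). Itgb1, an integrin chain gene, had 26, 91, 129 and 23 UMIs in T cells and was not called without the 4 cells (adjusted p = 0.0884).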

How the results depend on the processing

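The age test over all T cells, with 0 genes called, was the result most open to the choice of cells. It called 60 genes with the strict gate, 60 without the 4 cells with RNA of other types, 57 with all 3 Cd3 genes required, 94 without a filter on low counts, 16 after thinning, 14 with DESeq2 and 1 with a limit of 60000 UMIs. Leaving out 1 mouse at a time gave 33 to 193 genes, and 193 without mouse 7. It called 0 in the other 7 alternatives, among them labelled sex or the presence of Y chromosome RNA as a term (206 and 177 genes at an unadjusted p of 0.05). The interaction test called 90 genes, against 0 with DESeq2, 41 without the filter, 59 without T cells above 10000 UMIs, 65 with the strict gate, 54 without the 4 cells, and 20 to 114 without 1 mouse. Thinning before the sum, no TMM, the sex terms and the deep-cell and 4-cell alternatives were chosen after the data had been seen, as were the strict gate and deep-cell fits of the interaction.

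The difference in the T cell share kept its sign in 11 alternatives and ranged from -7.35 to -0.106 percentage points without 1 mouse, the latter without mouse 5. The Cd8 difference turned to -19.0 points at 2000 UMIs per cell and ranged from -4.17 to 62.5 without 1 mouse. The Foxp3 difference was 6.44 points at 2000 UMIs and 11.4 without thinning, and ranged from -0.410 to 5.71 without 1 mouse, the lowest without mouse 6. The cycling difference was -4.05 points at 2000 UMIs, -2.91 at 500, and -5.83 to 8.06 without 1 mouse. The cause of these turns was not tested. The Cd4 against Cd8 test and its alternatives were not run. No paired analysis was possible because the labels give no numbers shared between the ages, but the interaction fits had the mouse as a block. Depth limited mouse 7 most. The interaction self-test, on counts simulated in the same simplified way, recovered 1% of genes changed 4-fold and 68.5% of those changed 16-fold.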
